A study of Mus musculus with 4 samples.

Results

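The genes described here are 9 genes of mitophagy and mitochondrial dynamics: the kinase gene Pink1, the mitophagy receptor genes Bnip3, Bnip3l, Fundc1 and Phb2, the fusion genes Mfn1, Mfn2 and Opa1, and the fission gene Dnm1l. They were chosen by symbol from a list, and all 9 were found among the 56953 gene rows of the count table and were among the 14600 genes with enough counts to be tested. Expression was counted by 3' mRNA sequencing, which reads 1 short stretch near the end of each transcript, in 4 liver samples of mice aged 2 months on a normal diet. Both groups carried Ubc13 flox/flox alleles. The 2 control samples were Alb negative, and the genotype label calls them WT. The 2 deletion samples were Alb positive, with the genotype given as a hepatic Ubc13 deletion. Albumin-driven Cre acts in hepatocytes, and which other cell types of the liver kept the gene was not measured. Ubc13, encoded by Ube2n, is the enzyme that assembles ubiquitin chains linked through lysine K63, and the title of the series ties its loss to fatty liver disease through p62-regulated mitophagy. The labels do not say that replicates came from separate animals, so p-values measure only the spread between these samples, which may be technical in the controls. The 2 deletion libraries differed in Y-linked transcripts, as given below, so they did not hold the same RNA.

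Mitophagy is the removal of mitochondria by autophagy. In one route, PINK1 builds up on the surface of damaged mitochondria and phosphorylates ubiquitin there, which draws in ubiquitin-binding autophagy receptors. In another, proteins of the mitochondrial membranes bind LC3 or GABARAP on the growing autophagosome directly, as BNIP3, BNIP3L (also called NIX), FUNDC1 and prohibitin 2 (PHB2) do. Fusion and fission set the shape of the network: MFN1 and MFN2 join outer membranes, OPA1 joins inner membranes and holds cristae, and DRP1, the protein of Dnm1l, constricts mitochondria until they divide. Several of these proteins are controlled by phosphorylation, cleavage or ubiquitin, which a transcript count does not measure.

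Total counts were 16270424 to 17800138 per library. The targeted gene Ube2n had 41.3 and 44.9 CPM (the count over the library's total, on the usual CPM scale, corrected by TMM, a factor computed from the bulk of the genes) in the 2 controls against 5.88 and 5.97 CPM in deletion replicates 1 and 2. Xist, the RNA of the inactive X chromosome, had 2 to 9 counts in the controls against 3896 to 9590 in the deletion libraries, so genotype and sex-linked transcripts differed between the groups together and cannot be told apart. The Y-linked gene Ddx3y had 1027 and 1011 counts in the controls, 0 in deletion replicate 1 and 719 in deletion replicate 2. Deletion replicate 2 thus held transcripts of both kinds, and the values without it are given below. The tissue label fitted its markers: albumin (Alb) led the hepatocyte list, which summed to 156280 to 159850 CPM in the controls against 63890 to 67935 CPM with the deletion. In that list of 10 genes, 3 were called lower and 0 higher, and no defining marker was at 0. Among 10 macrophage markers, 3 were called higher and 0 lower, with sums of 505 to 676 CPM in the controls against 1246 to 1544 CPM with the deletion. The 8 cholangiocyte markers summed to 63.0 to 110.4 CPM and to 1353 to 1946 CPM (3 called higher, 0 lower). The tissue is given as liver, but the labels' protocol also speaks of primary hepatocyte RNA, and which was used was not settled. In either material, fewer cells of a type and less RNA per cell cannot be told apart. The part of these shifts in the values below was not tested.

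None of the 9 genes passed the test between genotypes, in either direction. The test was edgeR's quasi-likelihood F test with Benjamini-Hochberg adjustment over all 14600 genes at an adjusted p under 0.05, and it called 0 of 9, against 6.57% of all genes tested. DESeq2 and limma-voom also called 0 of 9. At an unadjusted p under 0.05 the edgeR test marked 2 of 9, Bnip3 and Opa1, both lower (24.4% of all genes in either direction and 10.5% lower). The TMM-scaled levels of 5 genes (Pink1, Bnip3, Phb2, Mfn1 and Opa1) had both deletion libraries below both controls, where 27.3% of all genes did, and 0 had both above, where 28.7% did. The median log2 fold change was -0.17 over the 9 genes and -0.004 over all genes, and single values ran from -0.42 for Bnip3 to 0.12 for Dnm1l. With library sizes alone as scaling, the median of the 9 was 0.12 and that of all genes 0.29, so the sign of the first median rests on the scaling. Without deletion replicate 2, the library with both Xist and Ddx3y, 0 of 9 were called and 0 of 9 had an unadjusted p under 0.05. The log2 fold changes were then -0.35 for Bnip3, -0.30 for Opa1, -0.34 for Pink1, -0.35 for Bnip3l, -0.14 for Mfn1, -0.12 for Phb2, -0.09 for Mfn2, 0.06 for Fundc1 and 0.06 for Dnm1l, with the lone deletion library assumed to vary as the controls do.

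**Figure D1:**
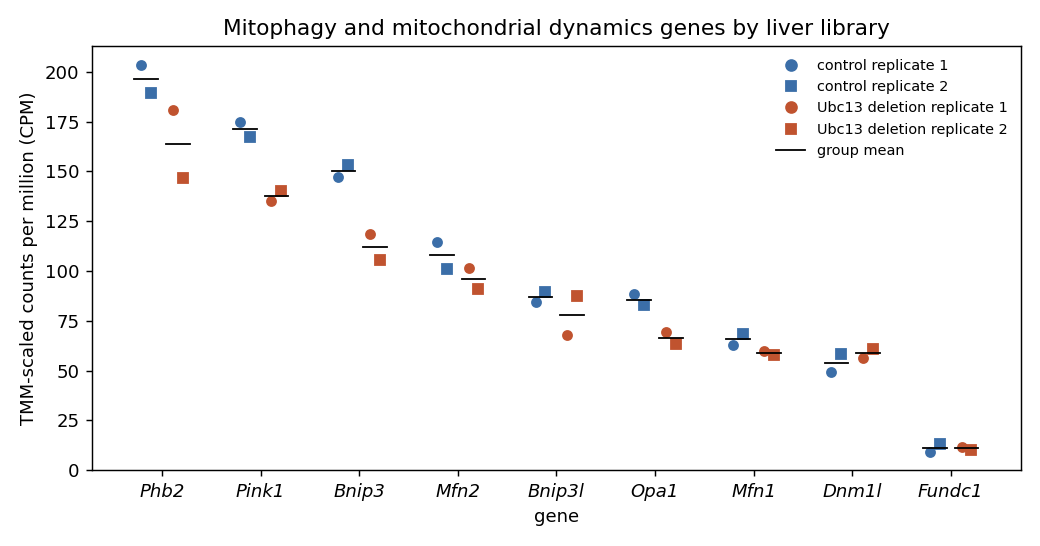
TMM-scaled CPM of each gene (linear axis from 0) in the 2 control and 2 deletion libraries, with a bar at each group mean. The largest gaps between groups are those of Bnip3 (147 and 153 against 119 and 106 CPM) and Pink1 (175 and 167 against 135 and 140.2 CPM), and Dnm1l and Fundc1 overlap.

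Pink1, the kinase that marks depolarized mitochondria, had 2837 and 2434 counts in the 2 controls against 2463 and 2724 in deletion replicates 1 and 2. After TMM scaling this was 175 and 167 CPM in the controls against 135 and 140.2 CPM with the deletion. Both deletion libraries were below both controls, and replicates of a group lay close together. The log2 fold change was -0.31 ± 0.14 (SE), with a 95% interval from -0.66 to 0.03, and did not pass (edgeR adjusted p = 0.246, both deletion libraries lower). As plain CPM, the count over the library's total without TMM, the same libraries gave 159, 149.6, 145.5 and 159, and the groups overlapped. Pink1 (ENSMUSG00000028756) lies on chromosome 4 from 138313409 to 138326307 on the minus strand of GRCm38.

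Bnip3 encodes an outer membrane receptor known for its induction by hypoxia. It had the lowest p of the 9 genes. Its levels were 147 and 153 CPM in the controls against 119 and 106 CPM with the deletion, from 2390, 2233, 2157 and 2054 counts. Both deletion libraries were below both controls, at 150.4 ± 4.2 CPM (SD, n = 2) against 112 ± 9.1 CPM (n = 2). This gave a log2 fold change of -0.42 ± 0.15 (95% interval -0.79 to -0.06), an unadjusted p of 0.0282 that did not pass over all genes (edgeR adjusted p = 0.152). This was also the only one of the 9 genes whose plain CPM was lower in both deletion libraries (134 and 137 against 127 and 120.0), which held for 11.2% of all genes. The gene (ENSMUSG00000078566) spans chromosome 7 from 138890836 to 138909519 on the minus strand. Its last exon is crossed on the other strand by Gm45507, which had 0 counts in all 4 libraries.

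The sequences before the starts of Bnip3 and Opa1 are shown because these were the genes with the lowest p, and because each holds a motif of a factor known in mitochondrial or hypoxic gene control. They are RefSeq sequences on GRCm38.p6, 5' to 3' on the strand of the gene, ending before the outermost annotated start, with motif matches in capitals. The motifs searched on both strands were ACGTG (the A form of the HIF core), CACGTG (E-box, which contains ACGTG on both strands), CGCATGCG (NRF1 core), CCGGAAGT (ETS, as for GABPA) and GTAAACA (FOXO). The G form of the HIF core, GCGTG, was not searched and is not marked.
Bnip3, chr7:138909520-138909756, minus strand: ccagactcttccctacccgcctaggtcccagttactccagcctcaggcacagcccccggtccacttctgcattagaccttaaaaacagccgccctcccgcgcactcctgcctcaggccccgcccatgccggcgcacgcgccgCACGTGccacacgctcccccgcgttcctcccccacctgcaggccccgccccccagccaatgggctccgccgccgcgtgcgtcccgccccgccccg
Opa1, chr16:29579084-29579333, plus strand: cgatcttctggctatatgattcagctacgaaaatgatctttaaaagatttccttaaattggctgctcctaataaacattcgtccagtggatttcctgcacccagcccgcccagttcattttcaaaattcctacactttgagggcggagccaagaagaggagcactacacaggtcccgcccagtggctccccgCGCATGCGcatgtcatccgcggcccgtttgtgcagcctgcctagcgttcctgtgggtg

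The Bnip3 stretch holds 1 E-box, which 6.02% of all 32851 RefSeq windows of 250 bases before a start hold, and the ACGTG within it is in 16.6% of windows. The Opa1 stretch holds 1 NRF1 core, found in 1.55% of windows. Of the other genes, Phb2 held the ETS motif at 2 positions and Mfn1 at 1 (2.88% of windows), while Phb2 and 1 of the 3 Mfn2 windows held an ACGTG outside an E-box. The FOXO letters were in no window of these genes (3.17% of all windows), and the table used has no Bnip3l entry. A match is a description of the letters and not of a bound site.

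Bnip3l, the paralogue of Bnip3 needed to clear mitochondria from maturing red cells, had 84.3 and 89.4 CPM in the controls against 68.0 and 87.6 CPM with the deletion. Deletion replicate 1 was below both controls and deletion replicate 2 lay between them. The fitted difference was -0.16 ± 0.17 (95% interval -0.58 to 0.27; edgeR adjusted p = 0.638), and it was 0.002 without deletion replicate 1 and -0.35 without deletion replicate 2. Erythroid markers, as summed CPM of 7 genes, were 1469 and 769 in the controls against 1027 and 388 in deletion replicates 1 and 2. A link between these sums and the Bnip3l levels was not tested. The processed pseudogene Bnip3l-ps had 58, 94, 94 and 129 counts in the same order, and reads of the parent gene (1367, 1301, 1238 and 1702 counts) can be shared with it. Bnip3l (ENSMUSG00000022051) lies on chromosome 14 from 66985239 to 67008877.

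Fundc1, an outer membrane receptor that binds LC3 in hypoxia, was the least abundant of the 9 genes. It had 149 and 192 counts in the controls against 213 and 201 with the deletion, or 9.19 and 13.2 CPM against 11.7 and 10.3 CPM. Both deletion values lay inside the range of the controls. On the log2 scale the difference was -0.02 ± 0.24, with a 95% interval from -0.61 to 0.57 that leaves room for changes of that size in either direction (edgeR adjusted p = 0.973). The gene (ENSMUSG00000025040) lies on the X chromosome from 17556564 to 17572325. It is the 1 X-linked gene of the set, and Xist had 527 and 201 CPM in deletion replicates 1 and 2 and under 1 CPM in each control.

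Phb2 encodes prohibitin 2, an inner membrane scaffold that can bind LC3 once the outer membrane has broken. It was the most abundant of the 9, at 203 and 189 CPM in the controls against 181 and 147 CPM with the deletion. Both deletion libraries were below both controls, and they differed from each other by more than the controls did. The fitted log2 fold change was -0.26 ± 0.17 (95% interval -0.67 to 0.15; edgeR adjusted p = 0.404). Its partner Phb, the gene of prohibitin 1, was at -0.20 ± 0.17 (adjusted p = 0.529), and the ratio of Phb2 to Phb counts was 1.42 and 1.49 in the controls against 1.40 and 1.38 with the deletion. Phb2 (ENSMUSG00000004264) lies on chromosome 6 from 124712336 to 124716950, and Gm15884, which crosses its last exon on the other strand, had 1 to 6 counts.

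The fusion genes Mfn1 and Mfn2 encode the outer membrane mitofusins, of which MFN2 also tethers mitochondria to the endoplasmic reticulum. Mfn1 had 62.9 and 68.6 CPM in the controls against 59.7 and 57.8 CPM with the deletion, without overlap. Its log2 fold change was -0.16 ± 0.14 (95% interval -0.51 to 0.19; edgeR adjusted p = 0.545). Mfn2 had 114 and 101 CPM in the controls against 101 and 90.8 CPM with the deletion, and control replicate 2 and deletion replicate 1 were nearly level. Its log2 fold change was -0.17 ± 0.15 (95% interval -0.54 to 0.21; edgeR adjusted p = 0.569). The intervals of both mitofusins reach no further down than -0.54. Mfn1 (ENSMUSG00000027668) lies on chromosome 3 from 32529465 to 32579239 and Mfn2 (ENSMUSG00000029020) on chromosome 4 from 147873599 to 147904704.

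Opa1, the dynamin-like GTPase of inner membrane fusion, had 88.6 and 82.7 CPM in the controls against 69.6 and 63.5 CPM with the deletion, from 1437, 1204, 1267 and 1233 counts. Both deletion libraries were below both controls. As a log2 fold change this was -0.36 ± 0.15 (95% interval -0.72 to -0.01), with an unadjusted p of 0.0455 and an edgeR adjusted p of 0.195, so it did not pass over all genes. In plain CPM the libraries had 80.7, 74.0, 74.8 and 72.0, and the groups overlapped. Opa1 (ENSMUSG00000038084) spans 29579334 to 29654884 of chromosome 16, plus strand.

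Dnm1l, the gene of the fission GTPase DRP1, was the only one of the 9 genes with a positive log2 fold change under TMM scaling. It had 49.5 and 58.6 CPM in the controls against 56.4 and 61.0 CPM with the deletion, from 802, 853, 1026 and 1185 counts. Deletion replicate 1 lay between the controls. In the fit the log2 fold change was 0.12 ± 0.16 (95% interval -0.26 to 0.50; edgeR adjusted p = 0.705), and it was -0.002 without control replicate 1 and 0.25 without control replicate 2. In plain CPM both deletion libraries were above both controls (45.1 and 52.4 against 60.6 and 69.2), as were 51.8% of all genes. The log2 fold change with library sizes alone was 0.41 (edgeR adjusted p = 0.146). Dnm1l (ENSMUSG00000022789) lies on chromosome 16 from 16312230 to 16358959 on the minus strand.

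**Figure D2:**
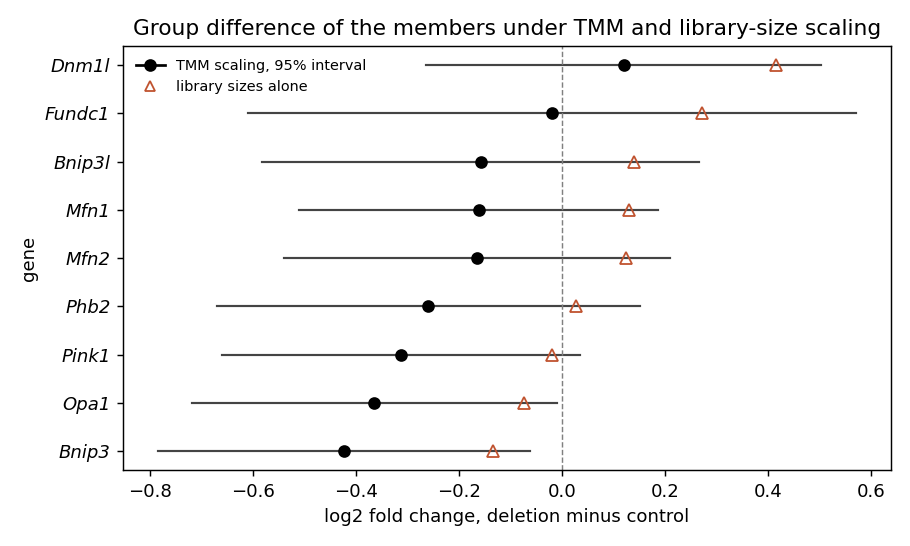
Log2 fold change of each gene, deletion minus control, under TMM scaling (filled points with 95% intervals from the edgeR fit) and with library sizes alone (open triangles). Under TMM scaling 8 of 9 points lie below 0, and with library sizes alone 3 of 9 do.

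The direction of most of the 9 genes depended on the scaling. Under TMM, 8 of 9 had a log2 fold change below 0, as had 50.4% of all genes; with library sizes alone 3 of 9 did (Pink1, Bnip3 and Opa1), and every gene moved up, as the median of all genes did by 0.29. Summed over the 9 genes, the TMM-scaled level was 935 and 924 CPM in the controls against 802 and 764 CPM with the deletion. In plain CPM the sum was 851 and 826 in the controls against 862 and 867 with the deletion. Alb, among the most abundant transcripts, had 119050 and 114960 TMM-scaled CPM in the controls against 45310 and 42886 with the deletion (edgeR adjusted p = 0.0612), and the TMM factors were 0.912 and 0.896 in the controls against 1.08 and 1.14 with the deletion.

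Ratios between members within a library do not depend on the scaling. The pairs were chosen after the values were seen, and the ratios are given as a description with no test. The ratio of Opa1 to Dnm1l counts was 1.79 (95% counting interval 1.64 to 1.96) and 1.41 (1.29 to 1.54) in control replicates 1 and 2. In deletion replicates 1 and 2 it was 1.23 (1.14 to 1.34) and 1.04 (0.960 to 1.13). Both deletion libraries were thus below both controls, although the intervals of control replicate 2 and deletion replicate 1 overlapped and the controls differed from each other by more than counting error. The ratio of Mfn1 to Dnm1l was 1.27 and 1.17 in the controls against 1.06 and 0.948 with the deletion. These values did not overlap between groups, but the intervals of control replicate 2 (1.07 to 1.28) and deletion replicate 1 (0.971 to 1.15) did. Opa1 to Mfn2, a pair of fusion genes, separated as well (0.775 and 0.817 in the controls against 0.686 and 0.699 with the deletion). Here the intervals of control replicate 1 (0.723 to 0.831) and deletion replicate 2 (0.649 to 0.752) overlapped. With 2 libraries against 2, the smallest possible 2-sided permutation p is 0.333, and the share of all gene pairs that separate was not computed. For Mfn2 to Dnm1l the groups overlapped (2.31 and 1.73 against 1.80 and 1.49). The 3 fusion genes together had 5.37 and 4.31 counts per Dnm1l count in the controls against 4.09 and 3.48 with the deletion. All ratios to Dnm1l share the counts of that gene, so they are not separate results. The ratio of the mitofusins, Mfn2 to Mfn1, was 1.82 and 1.48 in the controls against 1.70 and 1.57 with the deletion, inside the control range. The ratio of Bnip3 to Bnip3l was 1.75, 1.72 and 1.74 in both controls and deletion replicate 1 and 1.21 (1.13 to 1.29) in deletion replicate 2, a difference of 1 library and not of the group.

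**Figure D3:**
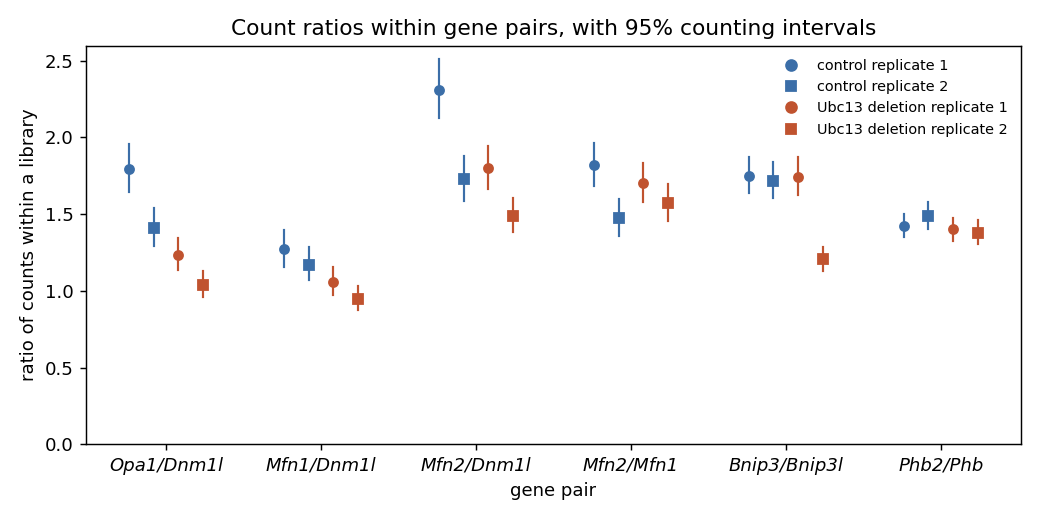
Ratio of the counts of 2 genes within each library (linear axis from 0), with exact 95% counting intervals as vertical lines. Opa1/Dnm1l and Mfn1/Dnm1l are lower in both deletion libraries, Mfn2/Mfn1 overlaps, and Bnip3/Bnip3l stands apart in deletion replicate 2 only (1.21).

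The order of the 9 genes by level was the same in both groups: Phb2, Pink1, Bnip3, Mfn2, Bnip3l, Opa1, Mfn1, Dnm1l and Fundc1, from 196 to 11.2 mean CPM in the controls and from 164 to 11.0 in the deletion libraries. These libraries read 1 stretch per transcript, so levels were compared without division by length, though they depend on how well the annotated ends match those used in liver. In the controls, Bnip3l and Opa1 (86.9 and 85.7 mean CPM) overlapped in their ranges, and the other neighbours in the order did not. In the deletion libraries, Bnip3l and Opa1 (77.8 and 66.5) overlapped, and so did Mfn1 and Dnm1l (58.7 each). The genes whose profile over the 4 libraries was nearest to that of Bnip3, among 1753 genes with a mean level within 1 log2 unit, were Dcn, Rpl9 and Slc31a1, at Euclidean distances of 0.044, 0.047 and 0.051 on the log2 scale. Dcn encodes the matrix proteoglycan decorin, Rpl9 a ribosomal protein and Slc31a1 a copper importer. Their log2 fold changes were -0.45, -0.43 and -0.42, and none was called.

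Counts for other genes of the same pathways are to be read against the shares of all genes. Of all genes, 6.57% were called, 24.4% had an unadjusted p under 0.05 and 10.5% had one with a lower level. Of 27 genes of the PINK1 axis and mitochondrial import, 0 were called (1 higher and 1 lower at an unadjusted p under 0.05; DESeq2 called 1 higher), with a median of -0.07. The lowest p values of that list belonged to Sqstm1 and Pmpcb. Pmpcb, a subunit of the matrix protease that cuts imported PINK1, was at -0.42 ± 0.15 (edgeR adjusted p = 0.154). Sqstm1, the gene of the receptor p62, was at 0.64 ± 0.17 (edgeR adjusted p = 0.0779). Sqstm1 was the gene that DESeq2 called (adjusted p = 0.0116). In edgeR it also passed when low-count genes were kept (adjusted p = 0.0170) or when TMM was left out (0.0251). Of 12 alternative settings, 3 called Sqstm1, and its log2 fold change ran from 0.53 to 0.94 over them. Among 21 partners of receptor mitophagy, 1 rose and 0 fell, against 4.41% of all genes called higher and 2.16% called lower. This was Src, a tyrosine kinase that can phosphorylate FUNDC1, at 6.17 and 3.16 CPM in the controls against 15.5 and 16.7 CPM with the deletion (log2 fold change 1.78 ± 0.33, edgeR adjusted p = 0.0338). It is expressed in many cell types, and its call did not hold without deletion replicate 1 (adjusted p = 0.0758) or 2 (0.128), or with a replicate block (0.0697).

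Of the 13 tested genes of the fission machinery beside Dnm1l, 0 were called (0 higher and 3 lower at an unadjusted p under 0.05; DESeq2 called 0). Over all genes 6.57% were called, 24.4% had an unadjusted p under 0.05 and 10.5% had one with a lower level, and the counts of fission, fusion and biogenesis genes are to be read against these shares. The lowest p values were those of Mief2 and Mief1, the outer membrane adaptors that recruit DRP1, at -0.58 ± 0.16 and -0.50 ± 0.15 (edgeR adjusted p = 0.0933 and 0.117). Gdap1 had 0 counts in every library and was not tested. Of 20 genes of fusion, inner membrane proteases and cristae, 0 were called (1 higher and 4 lower unadjusted; DESeq2 called 1 higher). Miga1, a regulator of mitofusin-dependent fusion, had 4.32 and 2.82 CPM in the controls against 7.58 and 10.3 CPM with the deletion (log2 fold change 1.32 ± 0.32, edgeR adjusted p = 0.068). Miga1 was the gene that DESeq2 called (adjusted p = 0.0213). In edgeR it also passed when low-count genes were kept (adjusted p = 0.00036) or when TMM was left out (0.0362). It did not pass with limma-voom (adjusted p = 0.0688) or with a replicate block in edgeR (0.152). The OPA1-cleaving proteases Oma1 and Yme1l1 were at 0.25 ± 0.16 and -0.14 ± 0.14 (adjusted p = 0.388 and 0.595), and the cristae subunit 2410015M20Rik (Micos13) at -0.48 ± 0.15 (0.121).

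Of 15 genes of mitochondrial biogenesis, 0 were called (1 higher and 2 lower unadjusted; DESeq2 called 0), with a median of -0.28. Tfb2m, a factor of mitochondrial transcription, was at -0.70 ± 0.17 (edgeR adjusted p = 0.0637) and the mitochondrial topoisomerase Top1mt at 0.65 ± 0.17 (0.0832). Both passed in edgeR when low-count genes were kept (adjusted p = 0.0129 and 0.0152). When TMM was left out, Top1mt passed (edgeR adjusted p = 0.0291) and Tfb2m did not (0.155). Of 22 tested hypoxia-inducible genes, the class to which Bnip3 belongs, 1 rose and 0 fell, with a median of 0.05, and at an unadjusted p under 0.05 there were 3 higher and 2 lower. That is near the share of all genes, of which 4.41% were called higher and 24.4% had an unadjusted p under 0.05. The gene that rose was the glycolytic enzyme Aldoa, from 101 and 108 CPM to 173 and 189 CPM (log2 fold change 0.79 ± 0.15, adjusted p = 0.0344). Its call was lost without deletion replicate 1 (0.102) or 2 (0.195) and with a replicate block (0.0807). Vegfa and Pdk1, 2 further targets of this class, were at -0.46 and -0.36, close to Bnip3, and Egln3 was at 0.97, none of them called.

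Of the 13 mRNAs made from mitochondrial DNA itself, 4 fell and 0 rose with the deletion, where 2.16% of all genes were called lower, and the other 9 did not pass. The 13 mitochondrially encoded mRNAs took 5.17% and 4.94% of all counts in the 2 controls against 3.80% and 3.84% in deletion replicates 1 and 2. In control replicate 1 the exact 95% interval was 5.16 to 5.18%, and it covers counting error only. The 4 that fell were mt-Atp6 (ATP synthase), mt-Co2 and mt-Co3 (cytochrome oxidase) and mt-Nd6 (complex I). The largest change was that of mt-Atp6, from 107 and 171 CPM to 39.1 and 36.7 CPM (log2 fold change -1.88 ± 0.25, edgeR adjusted p = 0.0137). The other 3 fell by 0.88, 0.86 and 0.86 on the log2 scale (adjusted p = 0.0303, 0.0241 and 0.0451). All 13 had both deletion libraries below both controls under TMM (27.3% of all genes did), and 11 of 13 did in plain CPM (11.2% of all genes), where mt-Nd1 and mt-Nd3 overlapped. The 13 come from the same mitochondrial DNA, so they are not 13 independent genes. Control means were 139, 126 and 55.3 CPM for mt-Atp6, mt-Co2 and mt-Co3, against 20548 for mt-Co1 and 11683 for mt-Cytb, which were not called. Thus 3 of the 4 calls were of mRNAs with few counts beside mt-Co1 and mt-Cytb. Control means were lower still for mt-Nd3, mt-Nd4l and mt-Atp8 (10.9, 9.45 and 1.97 CPM). How well the 3' kit, the alignment and the counting record each of the 13 was not tested. The 9 nuclear genes of mitophagy and dynamics summed to 851 and 826 plain CPM in the same controls and to 862 and 867 with the deletion. Under TMM, the scaling of the calls above, their sum was 935 and 924 CPM in the controls against 802 and 764 CPM with the deletion. With library sizes alone, with a replicate block or without deletion replicate 1, 1 of the 13 was called (mt-Atp6), and without deletion replicate 2, 0 were (mt-Atp6 -1.83, adjusted p = 0.0643). The hepatocyte markers moved with these transcripts (156280 to 159850 against 63890 to 67935 summed CPM), and their part in the result was not tested.

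**Figure D4:**
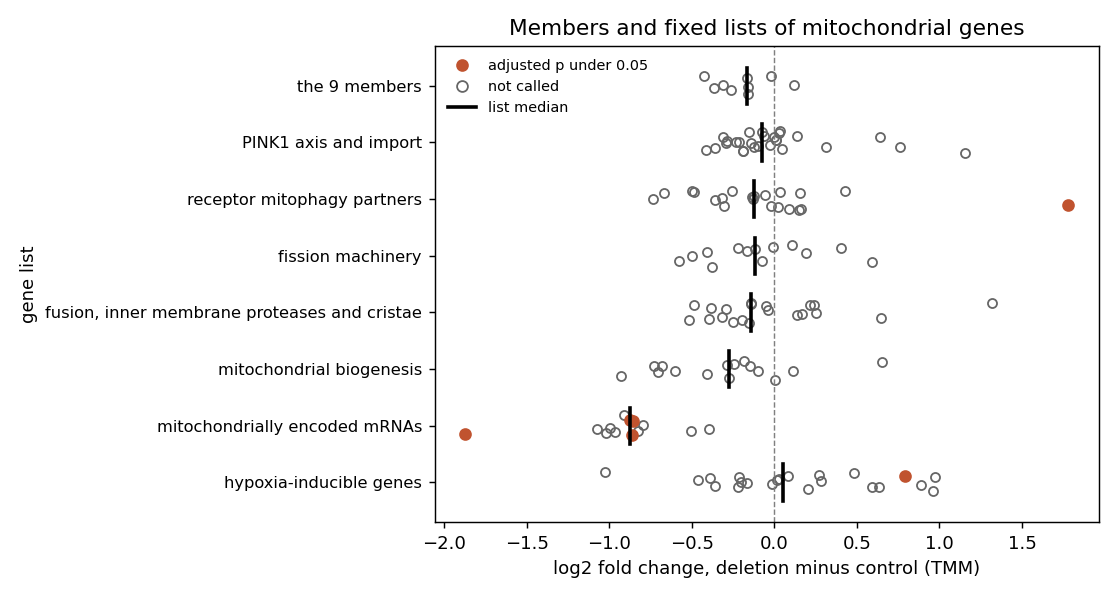
Log2 fold change (TMM) of every tested gene in the set of 9 and in 7 related lists, with called genes filled and a bar at each list median. The mitochondrially encoded mRNAs all lie below 0 (median -0.88), and the medians of the other lists lie between -0.28 and 0.05.

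**Figure D5:**
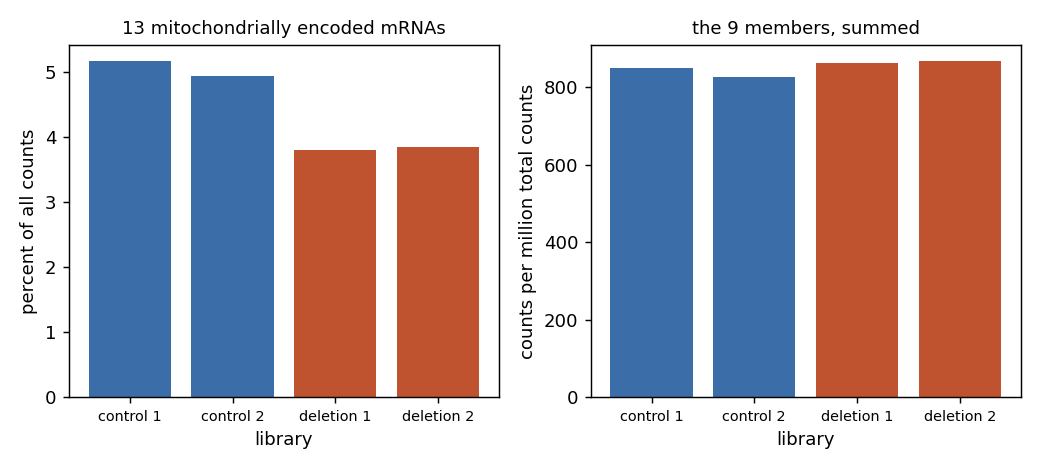
Left, percent of all counts from the 13 mitochondrially encoded mRNAs in each library, and right, the summed plain CPM of the 9 genes, both on linear axes from 0. The first is lower in both deletion libraries (3.80% and 3.84% against 5.17% and 4.94%), and the second is 826 to 867 in all 4. The TMM-scaled sum of the 9 genes, not drawn, was 935 and 924 CPM in the controls against 802 and 764 CPM with the deletion.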

How the data were processed

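The study has 4 mouse liver libraries, 2 per group. Libraries came from a QuantSeq 3' kit with single-end 75 bp reads, alignment was by Bowtie2, and the study itself used edgeR, per the labels' protocols. Builds mm10 and GRCm38 are named in the submitters' processing notes; for the counting program, its strand setting and the annotation nothing is given in the sources used. The labels' protocol also speaks of primary hepatocyte RNA, while tissue is given as liver; which was used was not settled. The deposited file is the authors' raw count table by Ensembl gene, with 0 columns outside these samples.

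Symbols and coordinates came from GENCODE M21 (GRCm38), which matched 52029 of 56953 rows. Genes were kept by filterByExpr (minimum count 10, total 15) and fitted with edgeR 4.0.16 in R 4.3.3, genotype as the only term, with TMM scaling. Residual degrees of freedom were 2, with a prior value of 4.14. SE was computed as |log2 fold change| divided by the root of F, and 95% intervals use the fit's degrees of freedom. DESeq2 1.42.0, limma 3.58.1 (voom), robust fitting, other scalings, no filter, a replicate block and leaving out each library were the alternatives. The code was tested on simulated counts. Replicates differed by more than counting noise (chi-square per degree of freedom 38.9 in controls and 25.3 in deletion libraries). Intervals on ratios and shares are exact (Clopper-Pearson) and cover counting error only. 3 counts, the floor, equal 0.169 to 0.184 CPM.

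The members and lists were chosen with earlier results of these data known. Named are all 9 members, and of each list up to 4 called genes per direction by lowest p, or else the 2 genes with the lowest p; Phb, Oma1, Yme1l1, Vegfa, Pdk1, Egln3, Gdap1, mt-Nd1 and mt-Nd3 were added after their values were seen. Some single genes of the lists are not reported here. Genes like Bnip3 were ranked by distance of centred log2 CPM.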

Additional observations from a re-analysis of the deposited data

How the results depend on the processing

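Under all 12 alternatives, 0 of the 9 genes were called, with lowest adjusted p of 0.139 for Bnip3, 0.146 for Dnm1l, 0.184 for Opa1 and 0.237 for Pink1. Bnip3, Opa1 and Pink1 stayed below 0 in all 12 (-0.52 to -0.13, -0.44 to -0.08 and -0.35 to -0.02). With library sizes alone the log2 fold changes turned positive for Bnip3l (0.14), Fundc1 (0.27), Phb2 (0.027), Mfn1 (0.13) and Mfn2 (0.12), and for Fundc1 also with limma-voom (0.0063). With 1 library left out, Fundc1 ranged from -0.26 to 0.26, Bnip3l from -0.35 to 0.0016 and Dnm1l from -0.0017 to 0.25.

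Of all genes, 959 were called (67.2% higher), 1567 with DESeq2, 1764 with library sizes alone (88.5% higher), 2768 without a filter, and 343 to 2081 with 1 library left out (1700 and 2081 without control replicates 1 and 2, 499 and 343 without deletion replicates 1 and 2). The samples share replicate numbers only, and deviations of same-numbered libraries correlated at -0.12; the replicate block called 390 genes and 0 of the 9, with 0 receptor partners, 1 mitochondrially encoded mRNA and 0 hypoxia-inducible genes. With crossed numbers, chosen after seeing the data, 1 fusion and 1 biogenesis gene were called, and 0 of the 9.

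DESeq2 called 1 gene of the PINK1-axis list, 1 of fusion, 8 mitochondrially encoded mRNAs and 2 hypoxia-inducible genes. Library sizes alone called 2, 1, 1 and 2 of these, 2 receptor partners and 1 biogenesis gene. Without a filter the counts were 2 for PINK1-axis, 3 for receptor partners, 1 for fusion, 3 for biogenesis, 10 for mitochondrially encoded mRNAs and 6 for hypoxia. With 1 library left out they ranged from 0 to 1 for PINK1-axis, 0 to 3 for receptor partners, 0 to 1 for fission, 0 to 1 for fusion, 0 to 3 for biogenesis, 0 to 6 for mitochondrially encoded mRNAs and 0 to 5 for hypoxia. The causes were not tested.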

Other observations

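A few genes next to these pathways differed more between the 2 controls than between the groups, and are given as values chosen after they were seen. Gabarapl1, which encodes a partner of mitophagy receptors on the autophagosome, had 6531 and 2718 counts in the first and second control against 2507 and 4542 with the deletion. Ddit4, a stress-induced inhibitor of mTORC1, had 400 and 1912 control counts against 559 and 891 with the deletion. The biogenesis coactivator Ppargc1b had 129 and 41 control counts against 28 and 80 with the deletion. The hypoxia-inducible carbonic anhydrase Car9, which is below the count filter, had 151 counts in control replicate 1 and 4, 4 and 0 in the other libraries in the same order. The biliary keratin Krt19 had 635 counts in control replicate 1 and 47, 53 and 77 in the others. For Bnip3, the 2 controls had 2390 and 2233 counts, and for Pink1 2837 and 2434. The part of these differences in the group comparisons was not tested.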
